A study of Mus musculus with 2 samples.

Results

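Heme synthesis was followed through 9 genes, of the 27998 in the tables, in single cells of the fetal liver. They encode Alas1 and Alas2, Slc25a38, Alad, Uros, Urod, Cpox, Ppox and Fech, and each symbol matched 1 gene identifier. The genes were taken from a list of symbols and not by a cutoff on their values, though the list was chosen with earlier results of these data known. The cells came from 1 wild-type C57BL/6 mouse liver at E12.5 (days of embryonic development), untreated, split into 2 technical replicate libraries, although the series text speaks of 2 suspensions. With 1 liver, no test between animals was possible and no p-value is given.

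Heme is built in a chain of enzymatic steps that starts and ends in the mitochondrion and passes through the cytosol in between. The first step, which joins glycine and succinyl-CoA, is catalyzed by a housekeeping enzyme, ALAS1, in most cells and by an erythroid form, ALAS2, in developing red cells. SLC25A38 is the mitochondrial carrier held to bring in the glycine. ALAD, UROS and UROD act in the cytosol, CPOX and PPOX oxidize the ring precursors, and FECH inserts the iron. Erythroid cells need large amounts of heme for hemoglobin, and the erythroid genes of this chain are known targets of the factors GATA1 and KLF1. Granulocytes use heme in myeloperoxidase.

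Upstream sequences are shown for Alas2, Cpox and Uros, the genes examined in which a match to the GATA letters given below was found. In the data below Alas2 was the furthest behind of the erythroid genes. The others were ahead of it with or without such a match, and a link between matches and timing was not tested. For Uros the inner of its RefSeq starts is shown. The sequences were read from RefSeq (GRCm38.p6) and kept only outside annotated exons. Capitals mark matches to the GATA letters AGATAA or AGATAG, to these with T in the first place (TGATAA and also TGATAG), or to CACCC, each on either strand. The matches describe the letters alone.
Alas2, chrX:150547167-150547374, plus strand: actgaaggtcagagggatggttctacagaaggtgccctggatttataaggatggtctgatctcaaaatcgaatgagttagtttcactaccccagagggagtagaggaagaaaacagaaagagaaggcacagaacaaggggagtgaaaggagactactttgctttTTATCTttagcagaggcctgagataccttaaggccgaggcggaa
Cpox, chr16:58669958-58670207, plus strand: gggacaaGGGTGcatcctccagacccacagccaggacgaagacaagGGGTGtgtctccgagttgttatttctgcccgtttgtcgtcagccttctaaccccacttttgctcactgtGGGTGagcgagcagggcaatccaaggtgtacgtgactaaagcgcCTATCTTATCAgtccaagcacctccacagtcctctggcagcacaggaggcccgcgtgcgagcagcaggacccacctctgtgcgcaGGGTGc
Uros, chr7:133702617-133702750, minus strand: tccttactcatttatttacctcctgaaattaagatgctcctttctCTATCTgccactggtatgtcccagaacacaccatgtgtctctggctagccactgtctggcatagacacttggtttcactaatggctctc
The Alas2 stretch of 208 bases held 1 GATA match, and 23.7% of 32851 promoters held one in a stretch of that length. It ends 42 bases before the RefSeq start, directly before the gene as GENCODE has it. The Uros stretch lies within the gene and ends 116 bases before its inner RefSeq start. The next base is annotated as exon, and those beyond it were not examined. The Cpox stretch of 250 bases held 2 GATA matches that share a base and 4 CACCC matches, and 26.5% and 52.0% of promoters held at least 1 GATA or CACCC match in a stretch of that length. The Uros stretch of 134 bases held 1 GATA match, and 17.0% of promoters held at least 1. No GATA match was found upstream of Alad, Ppox, Urod or Slc25a38, where the stretches were 241 to 250 bases long. The Alad stretch of 241 bases and the Slc25a38 stretch of 242 bases held 1 CACCC match each. At these lengths 50.8% and 50.9% of promoters held at least 1. The other Alad stretch and those of Alas2, Uros, Ppox and Urod held no CACCC match. For Alas1, both RefSeq windows have an annotated exon at their far end and none is shown. Fech was not examined.

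The Alas1 gene lies at chr9:106233455-106248654, Slc25a38 at chr9:120110374-120124504 and Alas2 at chrX:150547375-150570638 of GRCm38 (GENCODE vM21). Alad lies at chr4:62509169-62519918, Urod at chr4:116989965-116994413, Uros at chr7:133686243-133710072, Cpox at chr16:58670292-58717636 and Ppox at chr1:171275990-171281186. Counts of UMIs, the tags that mark single captured RNA molecules, are made near the 3' end of the gene and cannot tell its promoters apart.

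The kept cells numbered 5480 in library 1 and 5057 in library 2, with 51969226 and 62738015 UMIs, and 31 cell barcodes occurred in both. Names of cells were those of the deposited table: stem and progenitor cells (HPSC), erythroid progenitors (Ery, subclusters Ery 1 and Ery 2), erythroblasts (Eryb, Ery 3 to Ery 6), primitive erythroid cells (EryP), megakaryocytes (Mk), granulocytes (G), monocytes and Kupffer cells (Mo/KC), endothelial cells (EC) and hepatoblasts (Hepa). Of 32 markers, 27 were highest in the type they mark in both libraries. Myb and the 4 progenitor markers Klf1, Gata1, Epor and Tfrc were the exceptions. The subclusters were built by the authors from the expression of the same cells, so their differences are a description. Globin genes took 1.07% of the UMIs of Ery 1 and 58.1% of those of Ery 6 in library 1, and 2.37% and 78.5% in library 2. For this reason levels are given as CPM, the UMIs of a gene per 1000000 UMIs, of all UMIs, as CPM of the UMIs outside 7 globin genes, and as UMIs per cell. Intervals are 95% and cover counting error only.

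Alas1 was high in G and low in the erythroid line. Library 1 gave 221 CPM in G, with a 95% interval from 200.3 to 243, and library 2 gave 227, from 206 to 249.8. In HPSC it was 24.6 and 27.8 CPM, in Mo/KC 39.8 and 47.4 CPM, and in Hepa 17.2 and 9.88 CPM. The G level was 8.97-fold that of HPSC (interval 7.09 to 11.5) and 8.16-fold (6.47 to 10.4) in the 2 libraries, and 5.55- and 4.79-fold that of Mo/KC. In G cells Alas1 stood far above free RNA, the RNA that enters every droplet and that was measured in barcodes with 1 to 50 UMIs, where it was 12.7 and 7.14 CPM. In the order of levels over the 13 populations, G over Mo/KC was one of 3 neighbouring pairs that stood apart in both libraries. The others were Ery 1 over Ery 2 and Ery 2 over Ery 3.

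Along the erythroid line Alas1 fell from 9.32 CPM in Ery 1 to 4.68 in Ery 2 and 0.78 in Ery 3 in library 1, and from 9.59 to 4.71 and 1.34 in library 2. In Ery 4 to Ery 6 it rested on 3 to 5 UMIs in library 1 and on 1 to 4 in library 2, so no order among these can be read. In EryP no UMI was found in either library, which allows up to 3.13 and 3.11 CPM (3 counts), so that G was at least 70.6-fold and 73.2-fold higher. In Ery 2 to Ery 6 the CPM of Alas1 lay below that of free RNA alone in both libraries, and in Ery 1 below it in library 1 alone. If free RNA gave every UMI of the globin gene Hbb-bs, it could give up to 6.29 and 3.76 Alas1 UMIs in Ery 1. There 92 and 89 were found. In Ery 2 the UMIs found were 2.43 and 4.16 times this limit. In Ery 3 to Ery 6, where cells make globin and the limit overstates free RNA, they were below it.

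Alas2 was the reverse: it rose through every subcluster and was highest in Ery 6. Its CPM in library 1 was 38.5 in Ery 1, 167 in Ery 2, 905 in Ery 3, 2121 in Ery 4, 2817 in Ery 5 and 3790 in Ery 6. In library 2 it was 48.6, 151, 630, 1263, 1516 and 1962 CPM. From Ery 1 to Ery 6 that is 98.5-fold (interval 89.0 to 109) in library 1 and 40.4-fold (36.8 to 44.5) in library 2. Outside the globin genes the 2 libraries gave 232-fold and 183-fold. Neighbouring subclusters stood apart in both libraries at each step from Ery 2 to Ery 6.

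The early part of this rise is near free RNA. If free RNA gave every UMI of Hbb-bs, a globin gene that HPSC, Mk, G, Mo/KC, EC and Hepa cells should lack, it could also give up to 488 Alas2 UMIs in Ery 1 of library 1, and 380 were found. In library 2 it could give 403, and 451 were found. In Ery 2 the UMIs found were 1.12 and 1.24 times this limit, which overstates free RNA where cells make globin. Over the 6 other populations and 2 libraries, Alas2 was within or below the limit in 10 of 12 cases, Cpox in 6, Fech in 5 and Uros in 4. Alas1 and Ppox were above it in all 12, and Alad, Urod and Slc25a38 in 11.

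**Figure D1:**
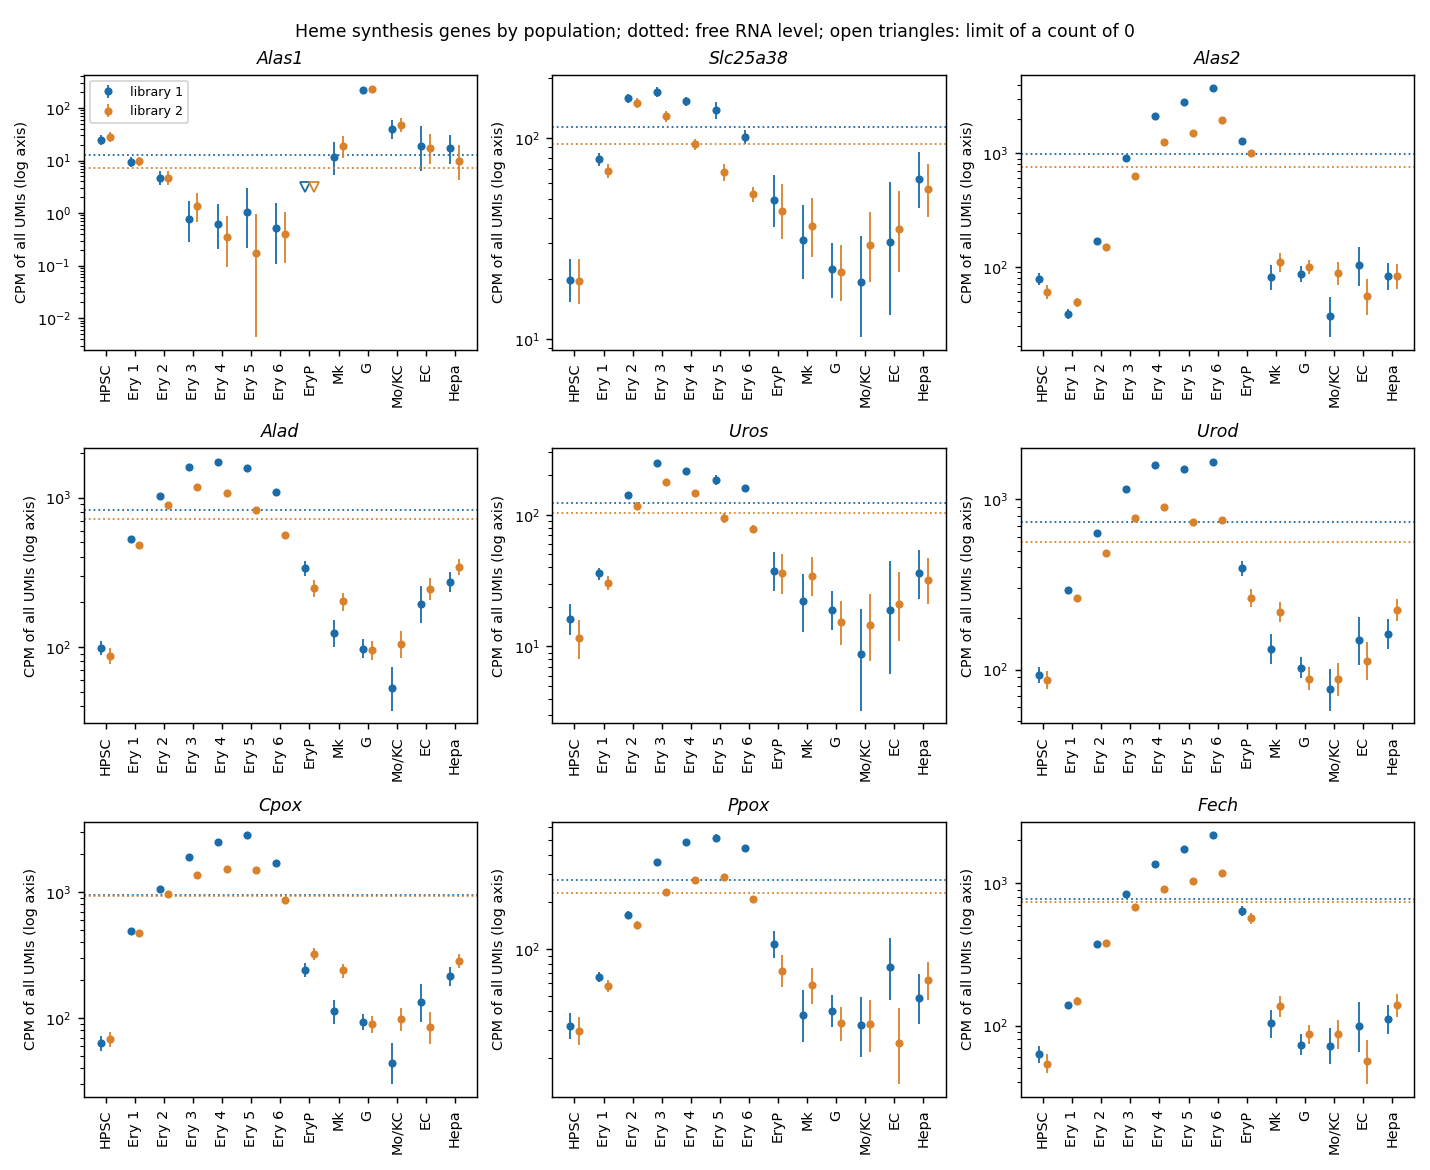
Level of each gene in CPM of all UMIs (log axis) by population, with 1 point per library and 95% Poisson intervals; dotted lines give the free RNA level, and open triangles the limit of 3 counts where no UMI was found. Alas1 is highest in G, at 221 and 227 CPM, and Alas2 in Ery 6.

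By level, the other 7 genes were higher in each of Ery 2 to Ery 5 than in any non-erythroid population, in both libraries. They differed in when they were highest. Outside the erythroid line Hepa had the highest level of Alad, at 273 and 342 CPM, and of Cpox, at 214 and 285 CPM. Slc25a38 in Ery 6 of library 2, at 52.5 CPM (48.1 to 57.2), was under its 55.6 CPM in Hepa (40.5 to 74.3). The intervals overlap, as do those of Hepa and Ery 5 there, at 67.6 CPM (61.1 to 74.6), so these were not told apart. As CPM of all UMIs, Slc25a38 was highest in Ery 3 (library 1, 170) and Ery 2 (library 2, 150), Uros in Ery 3 of both (247 and 178), and Alad in Ery 4 (1742) and Ery 3 (1181). Cpox was highest in Ery 5 (2814) and Ery 4 (1535), Ppox in Ery 5 of both (516 and 288), and Urod in Ery 6 (1653) and Ery 4 (898). Fech, at chr18:64452914-64490251, was highest in Ery 6 of both (2177 and 1189), as Alas2 was. Ery 3 and Ery 2 were not told apart for Slc25a38 in library 1, at a ratio of 1.08 (interval 0.999 to 1.16). Nor were Ery 5 and Ery 4 for Ppox in library 2, at 1.05 (0.986 to 1.11). A gene's level is compared here with its own levels, and not with those of other genes.

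Outside the globin genes, the order of the genes in Ery 1 followed that of the reactions only in part. Alas2 came last, and Cpox stood ahead of Urod in both libraries. Cpox and Uros were close and changed places between the libraries, and no interval was computed for these shares. The order also depended on the scale. Per cell, Uros stood in Ery 1 at 37.2% and 34.7% of its highest level, behind Cpox at 66.1% and 66.5% and Urod at 65.1% and 69.6%. In CPM of all UMIs Uros stood at 14.5% and 17.0%, behind Cpox at 17.3% and 30.8% and Urod at 17.8% and 29.4%. Measured outside globin genes, Slc25a38 stood in Ery 1 at 28.1% and 27.7% of its highest level, Alad at 16.5% and 15.7%, and Uros at 9.57% and 8.50%. Cpox stood at 8.53% and 8.72%, Urod at 7.54% and 7.66%, and Ppox at 6.31% and 5.46%. Fech stood at 2.72% and 2.78%, and Alas2 at 0.431% and 0.545%.
The erythroid form of the first enzyme was thus the furthest behind in Ery 1. In Ery 3, Uros was at 77.3% and 68.1% of its highest level, Slc25a38 at 71.6% and 71.0%, Alad at 58.8% and 53.2%, Fech at 19.2% and 17.2%, and Alas2 at 11.9% and 9.66%. Alas2 had the lowest share of its peak among the 8 genes other than Alas1 in Ery 1, Ery 2 and Ery 3, in both libraries and on all 3 scales.

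The genes also differed in where they first reached 50% of their highest level. In CPM of all UMIs this subcluster was Ery 2 for Slc25a38, Alad and Uros in both libraries, and Ery 3 for Ppox. It was Ery 3 in library 1 and Ery 2 in library 2 for Urod and Cpox, Ery 4 and Ery 3 for Fech, and Ery 4 in both for Alas2. These places depended on the 50% chosen: at 75% Alas2 came to Ery 6 and Ery 5, and at 25% Alad came to Ery 1 in both.

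Whether a gene fell late depended on the scale. In CPM of all UMIs, Slc25a38 was at 59.8% and 35.1% of its peak in Ery 6, Alad at 63.0% and 47.6%, Uros at 64.4% and 44.2%, and Cpox at 60.8% and 56.2%. Outside the globin genes, Slc25a38 stood at 86.1% and 96.3% there, Alad at 81.0% and 84.2%, Cpox at 70.8% and 72.2%, and Uros at its highest level in both. On that scale each gene peaked in the same subcluster in both libraries, Slc25a38, Alad, Cpox and Ppox in Ery 5 and Uros, Urod, Alas2 and Fech in Ery 6. Ery 6 and Ery 5 were not told apart for Uros, with ratios of 1.01 (interval 0.902 to 1.12) and 1.03 (0.921 to 1.15), nor for Ppox in library 1, at 0.991 (0.929 to 1.06), nor for Slc25a38 in library 2, at 0.963 (0.843 to 1.10). Of 8076 genes with at least 100 UMIs, 12.9% peaked in Ery 5 and 11.4% in Ery 6 in both libraries on that scale, and 42.1% in Ery 1, as Alas1 did. Per cell, Slc25a38 and Alad peaked in Ery 2, Uros, Urod and Ppox in Ery 3, Cpox in Ery 3 or Ery 2, Fech in Ery 5 and Alas2 in Ery 6. Some of these peaks were close to a neighbour. Uros in Ery 2 of library 2 stood at 98.9% of its highest level, and Fech in Ery 6 at 98.7% and 97.2%. The mean number of UMIs per cell fell over these subclusters from 26329 in Ery 1 to 4674 in Ery 6 of library 1 and from 25864 to 8424 in library 2, and fewer molecules of these genes per cell and less RNA per cell cannot be told apart.

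**Figure D2:**
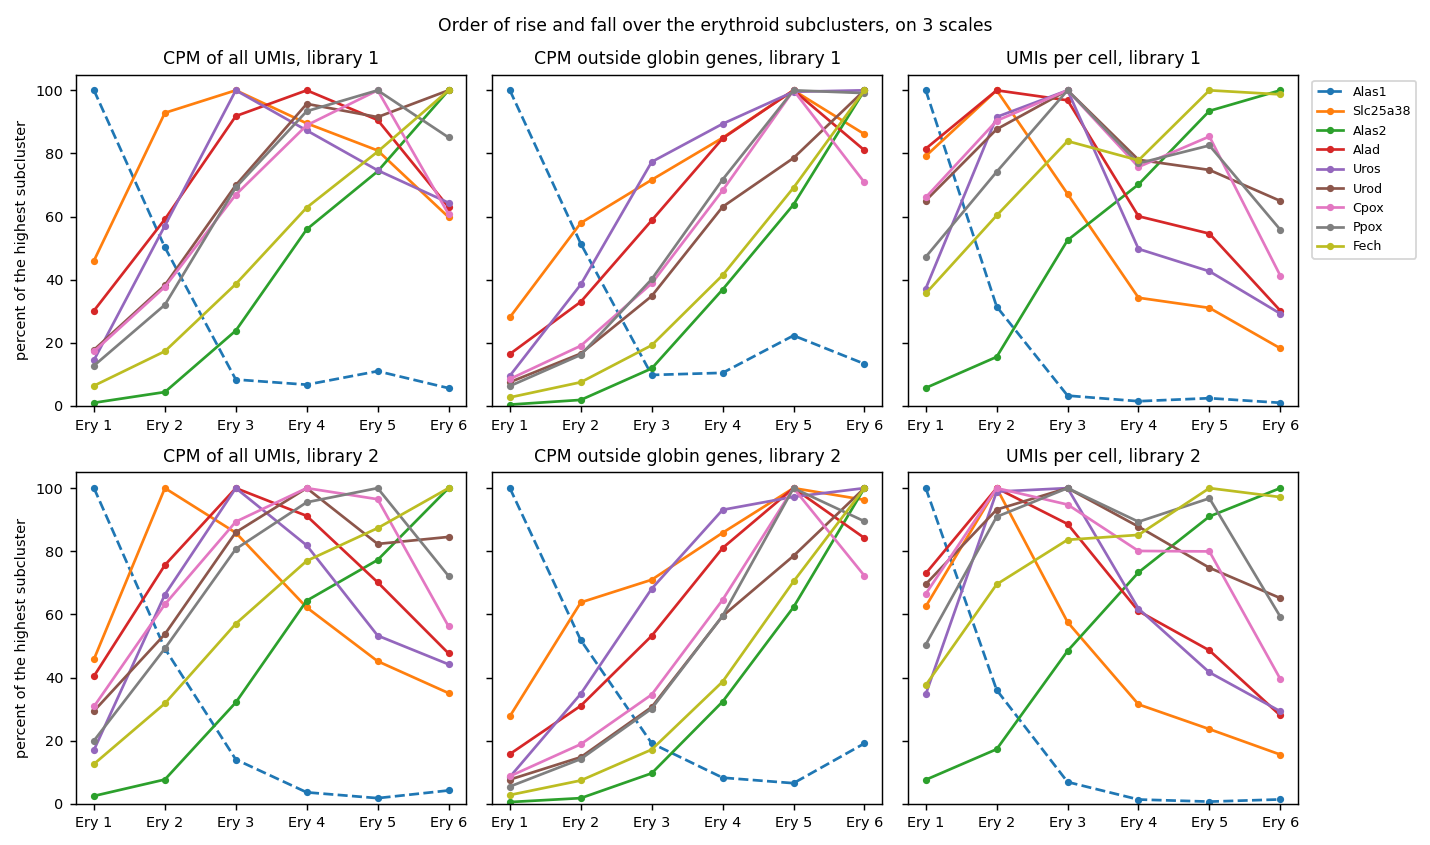
Level of each gene in Ery 1 to Ery 6 as a percent of its own highest subcluster, by scale (columns) and library (rows). On every scale Alas2 (green) is the lowest of the 8 genes other than Alas1 in Ery 1 to Ery 3, and Alas1 (dashed) is highest in Ery 1.

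Steps between neighbouring subclusters were called where the ratio was at least 1.5-fold in the same direction in both libraries, among genes with at least 10 UMIs. From Ery 1 to Ery 2, 8 of 9 genes were higher and Alas1 was lower, against 4.95% of 10253 tested genes higher and 21.7% lower. Uros rose 3.93- and 3.89-fold, Alas2 4.34- and 3.10-fold, and Fech 2.70- and 2.52-fold. The smallest of the 8 rises were those of Alad in library 1, 1.96-fold, and of Urod in library 2, 1.83-fold.
From Ery 2 to Ery 3, Alas2, Uros, Urod, Ppox and Fech were higher and Alas1 lower, against 5.33% and 34.1% of genes. From Ery 3 to Ery 4 Alas2 alone was higher, 2.34- and 2.01-fold, against 2.76% of genes, and none of 9 was lower, against 45.2%.
From Ery 4 to Ery 5 none of 8 genes was called, against 1.13% of genes higher and 40.6% lower. From Ery 5 to Ery 6 Cpox was lower, 0.608- and 0.583-fold, against 38% of genes lower, and none was higher, against 6.39%. Alas1 was under the minimum of 10 UMIs in the last 2 steps.

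In CPM of all UMIs the median of the members rose from Ery 1 to Ery 4 while that of all genes fell. From Ery 5 to Ery 6 both fell, the members less. In CPM of all UMIs the median log2 ratio of the genes tested was -0.22 and -0.26 from Ery 1 to Ery 2, and -0.54 and -0.86 from Ery 3 to Ery 4. The median over the members was 1.13 and 1.13, and 0.41 and 0.16. From Ery 5 to Ery 6 it was -0.22 and -0.32, against -0.46 and -0.56 for all genes. Outside the globin genes the median of all genes was -0.19 and -0.18, then -0.14 and -0.12, and lastly -0.24 and -0.25.

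Outside the globin genes the rise went on longer. From Ery 1 to Ery 2 the same 8 were higher, against 5.58% of genes, and Alas1 lower, against 19.8%. From Ery 2 to Ery 3 there were 7 higher, against 11% of genes, with Slc25a38 at 1.24- and 1.11-fold, and Alas1 lower, against 22.5%. From Ery 3 to Ery 4, Alas2, Urod, Cpox, Ppox and Fech were higher, against 12.1% of genes, and none was lower, against 21.4%. From Ery 4 to Ery 5, Alas2 and Fech were higher, against 8.78%, and none was lower, against 15.5%. From Ery 5 to Ery 6 Alas2 was higher, against 10.7%, and none was lower, against 27.9%.

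**Figure D3:**
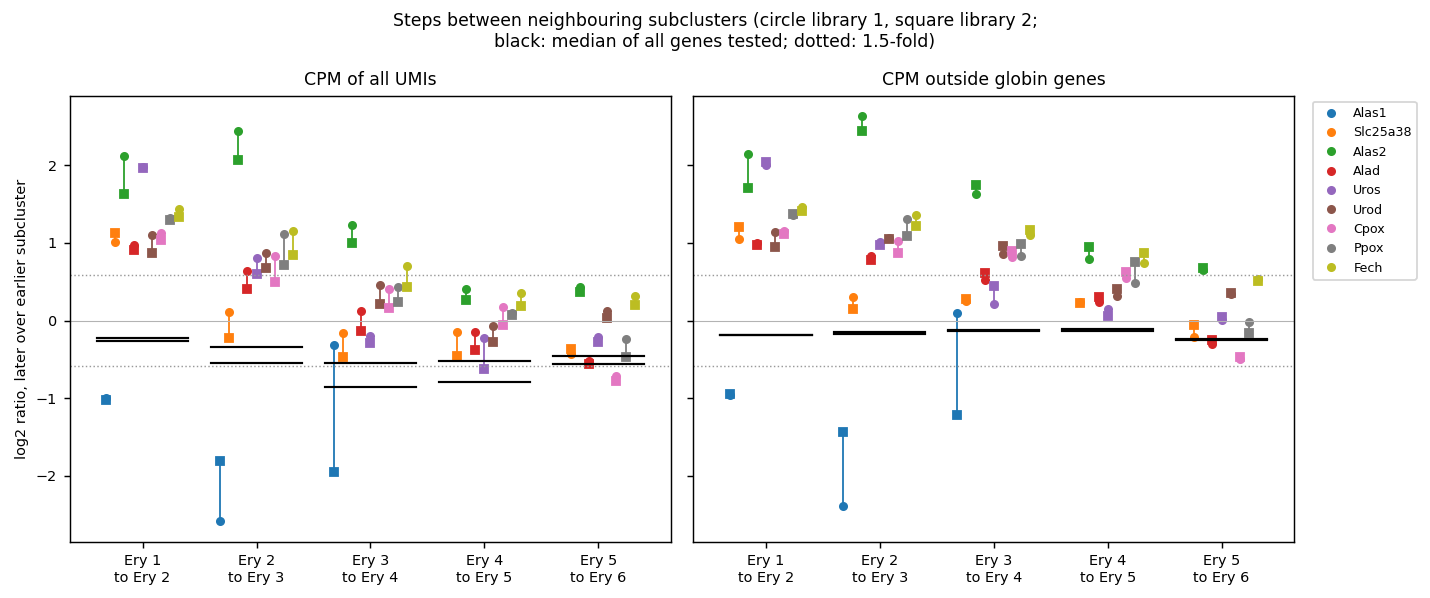
Log2 ratio of each step for each gene in library 1 (circle) and library 2 (square), as CPM of all UMIs and of UMIs outside globin genes; black lines are the medians of all genes tested and dotted lines 1.5-fold. Alas2 leads from Ery 2 onward, and Alas1 is below the other genes in the first 2 steps.

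A finer order was read from Ery 1 to Ery 6 cells divided into 10 equal groups by their share of adult globin UMIs, which runs from a median of 0.79% to 63.5% in library 1 and from 0.95% to 83.3% in library 2. Outside the globin genes, Slc25a38, Alad, Cpox and Ppox were highest in group 8 of both libraries, Uros in group 8 and group 7, and Urod, Alas2 and Fech in group 10. Between the group of its peak and group 10, Cpox fell from 5346 to 2898 CPM in library 1 and from 5177 to 2761 in library 2, and Slc25a38 from 286 to 160 and from 275 to 159. Urod rose from 3427 CPM in group 8 to 4304 in group 10 of library 1, and from 3132 to 3741 in library 2. In CPM of all UMIs Urod instead fell between these groups, from 1652 to 1474 and from 790 to 589. The globin UMIs that order the groups are part of the total on that scale. Falls and early peaks there are therefore partly built in by the grouping. On that scale the highest groups of the 2 libraries were 3 and 2 for Slc25a38, 4 and 4 for Uros, 5 and 4 for Alad, and 6 and 5 for Urod. They were 7 and 5 for Cpox, 7 and 7 for Ppox, 9 and 9 for Fech, and 10 and 10 for Alas2. Per cell, Slc25a38 and Alad were highest in group 2 of both, Uros and Cpox in groups 3 and 2, Ppox in 4 and 3, Urod in 5 and 2, Fech in 8 and 9, and Alas2 in 9 and 10. No interval was computed for the groups, and some neighbouring groups were close. In CPM of all UMIs of library 2, Cpox was at 1548, 1575 and 1570 in groups 4 to 6. Urod there was at 904, 910 and 903. Outside the globin genes, Ppox of library 1 was at 1066 and 1049 CPM in groups 8 and 9. A single group is therefore not read as a resolved peak.

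**Figure D4:**
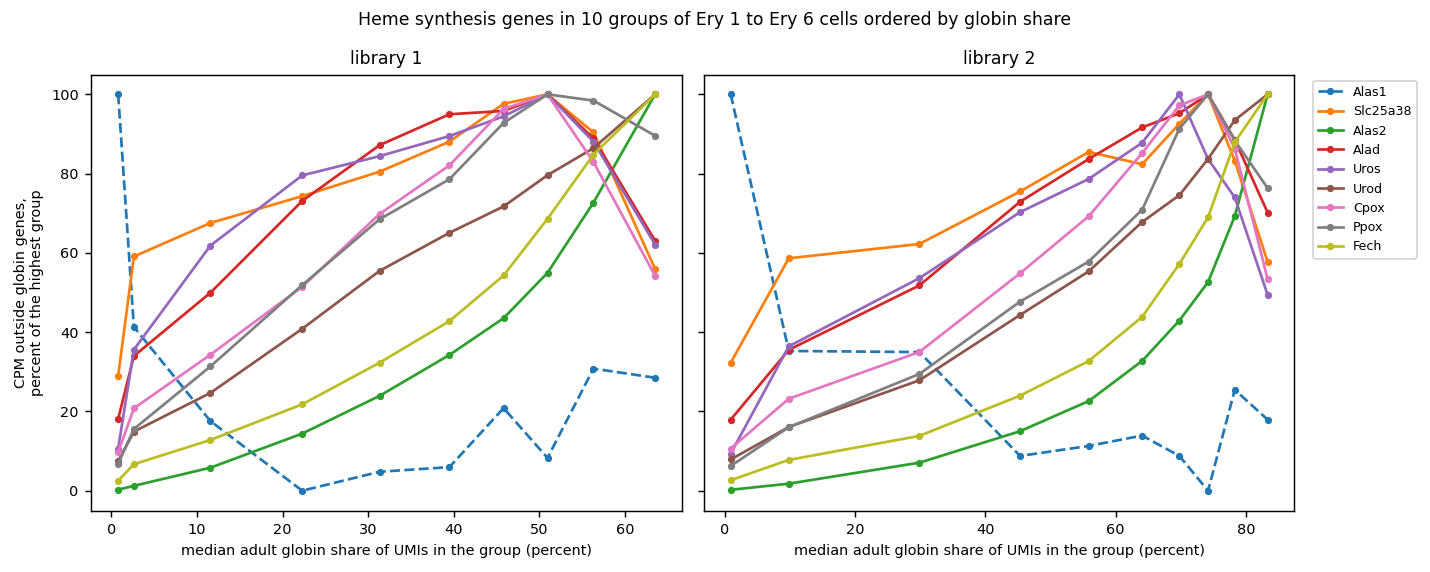
CPM outside globin genes as a percent of each gene's highest group, against the median adult globin share of the group, for 10 groups per library. Slc25a38, Alad, Uros, Cpox and Ppox pass their peak before the last group, and Alas2, Fech and Urod do not.

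Shares of cells with a UMI were compared after each cell was thinned to 3600 UMIs, with shallower cells left out, among them 155 of 557 cells of Ery 2 and 186 of 1357 of Ery 4 in library 1. Alas2 was found in 10.4% and 15.6% of Ery 1 cells, near the 12.3% and 13.0% of HPSC and the 15.8% and 19.2% of EC, which should lack it. It rose to 36.8% and 40.1% in Ery 2, 90.8% and 85.4% in Ery 3, and 99.6% and 97.9% in Ery 4. Without thinning the shares were 53.3% and 53.5% in Ery 1, 34.3% and 39.9% in HPSC, and 60.9% and 74.5% in Ery 2. Cpox was found in 71.2% and 70.5% of thinned Ery 1 cells, against 26.3% and 19.2% of EC (unthinned 92.8% and 92.5%, against 45% and 42.3%). EC held 20 and 26 cells before thinning, so its shares rest on few cells. Alas1 was found in 42.6% and 46.9% of G cells, against 7.58% and 5.77% of HPSC and 4% and 3.62% of Ery 1 cells. Unthinned these were 69.4% and 74.6%, 31.5% and 32.7%, and 20% and 21.2%. Median depth was 10550 and 14769 UMIs in G, 16053 and 14956 in HPSC, and 26146 and 25977 in Ery 1.

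In primitive erythroid cells the 8 erythroid genes stood at lower CPM of all UMIs than Ery 6, but for Slc25a38 in library 2, at 0.829-fold, the interval (0.590 to 1.14) held 1. The share of all genes lower in EryP was not counted, so this is not read as particular to the 8 genes. Alas2 in EryP was 1295 and 1000.5 CPM, which was 0.342-fold (interval 0.322 to 0.362) and 0.510-fold (0.477 to 0.544) that of Ery 6. Outside the globin genes the ratio was 0.615 and 0.628. Cpox was the lowest relative to Ery 6 in library 1, at 0.142-fold, and stood at 0.375-fold in library 2, where Urod was lowest at 0.346-fold. Fech stood at 0.294- and 0.477-fold. Globin genes took 76.7% and 82.5% of the UMIs of EryP. Some of these levels were within what free RNA could give by the limit from Hbb-bs, which overstates it in cells that make globin: Uros in both libraries, with 36 UMIs against 30.5 and 35 against 29.3 inside the counting interval, Cpox in library 1, with 232 against 235, and Ppox in library 2, with 70 against 64.5. For these the ratio to Ery 6 is not read as a level in EryP. Alas2 was 5.05 and 4.45 times the limit, and Fech 3.16 and 2.60 times.

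Within G, Alas1 differed by granule genes. G cells were divided, after their values had been seen, into those with early granule genes alone (Mpo, Elane, Prtn3, Ctsg), with both early and late ones, and with late ones alone (Ngp, Camp, Ltf, S100a8, S100a9). Left aside were 21 shallow cells of library 1, with 114 CPM of Alas1, and 2 and 1 cells with neither set, in which no Alas1 UMI was found. Alas1 was 143 CPM (119 to 169) in 48 early cells of library 1 and 116 CPM (95.7 to 139) in 54 of library 2. In cells with both it was 412 CPM (361 to 468; 36 cells) and 455 CPM (402 to 513; 42 cells). In late cells it was 130 CPM (94.2 to 175; 50 cells) and 165 CPM (122 to 218; 33 cells). The intervals of the middle class did not overlap those of the other two in either library. Median depth was 19051, 16152 and 5763 UMIs per cell in library 1, and 19363, 13988 and 7308 in library 2. The part of depth in these levels was not tested.

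**Figure D5:**
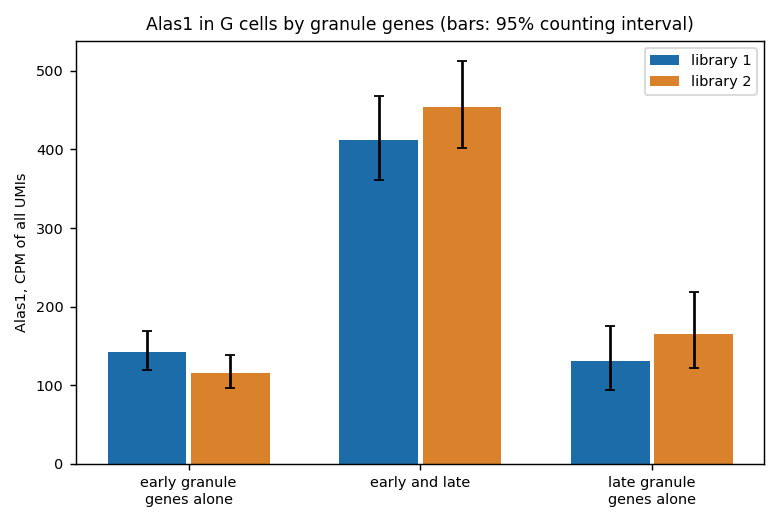
Alas1 in G cells by granule genes, in CPM of all UMIs, with 95% Poisson intervals (bars from 0). Cells with both early and late granule genes reach 412 and 455 CPM, above the other classes in both libraries.

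Of 25 genes that supply or assist the pathway in the mitochondrion, 6 were higher from Ery 1 to Ery 2 and 2 were lower, against 4.95% and 21.7% of all genes tested. Slc25a37, the iron importer mitoferrin-1, rose from 82.2 to 2455 CPM from Ery 1 to Ery 6 in library 1 and from 73.6 to 1297 in library 2. Tmem14c, which has a role in porphyrin transport, was highest in Ery 3, at 3199 and 2495 CPM, and fell to 397 and 218 CPM in Ery 6. From Ery 2 to Ery 3 there were 4 higher and 5 lower, against 5.33% and 34.1% of genes, among the latter Suclg1 and Suclg2, subunits of succinyl-CoA synthetase. Suclg2 fell from 92.4 to 2.81 CPM between Ery 1 and Ery 6 in library 1 and from 83.1 to 1.51 in library 2. From Ery 3 to Ery 4 there were 3 higher and 9 lower, against 2.76% and 45.2% of genes. From Ery 4 to Ery 5 none was higher and 7 were lower, against 1.13% and 40.6%, and from Ery 5 to Ery 6 3 were higher and 3 lower of 24, against 6.39% and 38%. The shares lower were below those of all genes at each step, so the falls are not particular to the list.
Of the 9 genes of heme export, breakdown and sensing that were matched, out of 11, 4 were higher from Ery 1 to Ery 2, Blvrb, Eif2ak1, Hebp1 and Fbxo7, and none was lower. Among all genes tested 4.95% were higher and 21.7% lower. Eif2ak1, the kinase that senses heme, rose from 35.2 to 272 CPM in library 1 and from 35.5 to 138 in library 2 between Ery 1 and Ery 6. Hmox1, heme oxygenase, was at most 2.50 CPM in the erythroid subclusters. In EryP the libraries differed, with 59.5 CPM in the first and 2.07 CPM in the second. Hmox1 was 710 and 540 CPM in Mo/KC and 328 and 111 CPM in EC. The Mo/KC markers Fcgr1, Csf1r, C1qa and Adgre1 had at most 1 UMI each in EryP of either library. The source of the Hmox1 difference in EryP was not tested. The next step of this list had 3 higher and 1 lower of 9, against 5.33% and 34.1% of all genes. From Ery 3 on the steps had 0 and 1, 0 and 3, and 1 and 2 of 8. All genes gave 2.76% higher and 45.2% lower, then 1.13% and 40.6%, and 6.39% and 38%. The shares lower of this list are below those of all genes. With so few genes no fall is read from them.

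The genes most like each member were found by Pearson's correlation of log2(CPM + 1) over the 13 populations, among 4421 genes, ranked by the lower value of the 2 libraries. The populations share depth, cell types and free RNA, so these are descriptions. Alas2 was most like the globin genes Hba-a2 (0.992 and 0.996), Hba-a1 and Hbb-bt. Outside the erythroid line Alas2 was within or below the Hbb-bs limit on free RNA in 10 of 12 cases. The part of free RNA in this likeness was not tested. Alas1 was most like Dhrs7 (0.980 and 0.990), Fam101b and Myl12b. Slc25a38 was most like Hebp1 (0.980 and 0.967), Klf1 and Rfesd, and Alad like Icam4 (0.992 and 0.979), Glrx5 and Klf1. Among the 3 genes most like Uros were Cldn13 (0.971 and 0.971) and Ubac1, and among those most like Urod were Cldn13 (0.986 and 0.989) and Rhag. Cpox was most like Icam4 (0.993 and 0.984), with Cldn13 also among its 3. Ppox was most like Hemgn (0.988 and 0.992), Urod and Cd24a, and Fech like Trim10 (0.985 and 0.981), with Kel also among its 3.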

How the data were processed

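The 2 technical replicate libraries of 1 wild-type E12.5 liver were analysed. According to the methods, doublets and debris were removed by cell sorting before encapsulation, and no further doublets were removed here. Raw UMI counts were deposited by the authors as matrices of genes by barcodes, before and after their selection of barcodes, with a table of cell types and subclusters. They used Cell Ranger 2.1.1 and Seurat 3.2.0 on mm10, per the labels. Cells were joined to that table by the suffix of their names, which gives the library.

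Counts were summed per population and library and scaled to CPM. Intervals are exact Poisson for levels and exact conditional binomial for ratios, at the 95% level. For populations without a UMI, 3 counts served as the limit. The members and the gene lists were chosen with earlier results of these data known. Named genes are the members, the 2 pathway lists, the globin genes, the markers and the 3 genes most like each member, of which some are not reported here. Flvcr1 and Flvcr2 matched no symbol. Shares used 1 draw with seed 1. The granule classes, a Hbb-bs limit on free RNA and the mean over all draws were added after the data had been seen. The calls were tested on simulated Poisson counts, with changes larger than 1.5-fold and no variation beyond counting error. These settings do not cover calls near 1.5-fold or at low counts. The Poisson intervals were tested on Poisson draws, which they cover by design. Alternatives were each library alone, 3 scales, filters on genes, UMIs and mitochondrial reads, 2-fold calls, other count minimums and other free RNA. The scripts ran on matplotlib 3.10.9, scipy 1.17.1, pandas 2.3.3, and numpy 2.4.6 under Python 3.11.15.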

Additional observations from a re-analysis of the deposited data

Results flagged for a closer look

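In library 1, 168 barcodes that were not kept as cells held at least 1000 UMIs and 200 genes. In these, 7 of the 9 genes had a 95% interval above that of free RNA, in CPM: Alas2 1877 against 982, Alad 1362 against 822, Uros 179 against 122, Urod 1521 against 740, Cpox 1971 against 942, Ppox 480 against 276 and Fech 1314 against 776. Slc25a38, at 139 against 114, and Alas1, with no UMI, did not. In library 2, 3311 such barcodes gave no such gene, with Alas2 at 696 CPM against 764. The level of Hbb-bs in these barcodes was 175729 CPM in library 1 and 146511 in library 2, against 88863 and 167506 in free RNA. The share of all genes above free RNA in these barcodes was not counted. The 7 genes are therefore not read as particular to heme synthesis.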

How the results depend on the processing

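No paired analysis was possible because all cells come from a single untreated liver. In CPM of all UMIs, 8 genes were higher and 1 lower from Ery 1 to Ery 2, 5 and 1 from Ery 2 to Ery 3, 1 and 0 from Ery 3 to Ery 4, 0 and 0 from Ery 4 to Ery 5, and 0 and 1 from Ery 5 to Ery 6. With each library alone, the counts were 8 and 1, 5 to 7 and 1, 1 to 2 and 0 to 1, 0 and 0 to 1, and 0 and 1. Outside globin genes, 5, 2 and 1 were higher in the last 3 steps and 0 lower in the last. Per cell, 4, 1 and 0 were higher in the first 3 steps, and 3 were lower from Ery 3 to Ery 4 and 3 from Ery 5 to Ery 6. At any fold, 5.15%, 5.11% and 2.84% of all genes tested were higher per cell in both libraries in the first 3 steps. Lower in both were 93.2% from Ery 3 to Ery 4 and 75.7% from Ery 5 to Ery 6. The per-cell counts are calls at 1.5-fold, so these shares at any fold are not their background. Counts without a share at the same fold show only how the main counts moved. Without the 4% of cells with the most UMIs, 2 were lower in the last step. At 2-fold, 0 were lower in the first step, 1 higher in the second and 0 lower in the last. At 50 UMIs, 0 were lower in the second step. Between Ery 1 and Ery 6, 3 genes that were at least 1.5-fold higher in both libraries changed sign per cell, with log2 ratios of -0.30 for Uros, -0.049 for Urod and -0.72 for Cpox, against 1.76, 2.01 and 1.34. Urod was near level per cell, at 0.998- and 0.936-fold in the 2 libraries. Alad, which was under 1.5-fold in library 2, also turned, from 0.65 to -1.41. With 10% free RNA taken away, Alas1 could give no ratio. With 25% or 75% in place of 50% of the peak, the first subcluster to reach it was averaged over the 2 libraries. This mean moved by at least 1 subcluster in 11 of 18 cases, and smaller shifts were not counted.

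The main limits are 1 liver, subclusters made from the same counts, 3' tags that cannot tell promoters apart, and few Alas1 UMIs in erythroblasts.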
